A study of Mus musculus with 2 samples.

Results

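The genes described here encode matrix proteases and their inhibitors, that is, enzymes that cut proteins outside the cell or at its surface and the proteins that hold them in check. The rule that chose them reads the gene symbol and no measured value, and takes the matrix metalloproteinases (Mmp), the ADAM, ADAMTS and ADAMTS-like genes, Timp1 to Timp4, Reck, the plasminogen activators Plat and Plau with the receptor Plaur, and the serpins Serpinf1 and Serpinh1. Of the 23361 genes with values, 90 met this rule, namely 23 MMP, 33 ADAM, 19 ADAMTS, 5 ADAMTS-like, 5 TIMP and Reck genes, 3 of plasminogen activation and 2 serpins.

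A single RNA-Seq library was made at each stage, from brown preadipocytes at day 0 (D0) and brown adipocytes at day 7 (D7). Such preadipocytes are the precursors of the heat-producing fat cells and came here from interscapular brown fat of newborn C57BL/6 mice. Per the labels, cells were plated 4 days before induction with T3 (1 nM) and insulin (0.1 μM). Only the cells of the D7 library received indomethacin (0.125 mM), IBMX (0.5 mM) and dexamethasone (2 μg/ml), for the 2 days after induction, before they went back to T3 and insulin alone. The labels call the cells primary cultures, whereas the methods of the study describe immortalization with large T, pups of either sex from a single C57BL/6J dam and lower concentrations of insulin and dexamethasone, so the cells may be an immortalized population. Values are FPKM, fragments scaled by transcript length and library size, which allow levels to be compared between genes.

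With 1 library per stage no difference has a replicate check, and no p-value is given. A gene above 0 in both libraries is called higher or lower at D7 at a ratio of FPKM of at least 2.0 or at most 0.5. Each ratio is given with the 95% interval that the fragments behind it allow (exact Clopper-Pearson). Intervals cover counting error only and compare these libraries, not the stages. In bulk RNA, fewer cells of a type and less RNA per cell cannot be told apart.

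The extracellular matrix around a preadipocyte is rich in fibrillar collagen and fibronectin, and adipocytes come to lie in a basement membrane. Metalloproteinases are made as inactive proenzymes, use a zinc ion to cut their substrates, and are blocked by TIMP proteins that plug the active site. ADAM proteins are anchored in the membrane and release growth factors and receptors from the cell surface, ADAMTS proteins are secreted and bind the matrix, and the plasminogen activators turn plasminogen into plasmin, a broad serine protease. In adipose tissue the membrane-type enzyme MMP14 is known for the collagen remodelling that lets fat cells grow.

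Markers of both labelled stages were measured. Of 12 markers of brown adipocytes, 8 were above 0 in both libraries and all 8 were higher at D7, while Ucp1, Cidea, Elovl3 and Cox8b were listed at 0 at D0 and above 0 at D7. Of 12 markers of preadipocytes and fibroblasts, 6 were lower at D7 and 2, Cd34 and Dlk1, higher. All 11 macrophage markers were detected at D0 and higher at D7, with a summed FPKM of 151 at D0 and 579 at D7. Endothelial markers summed to 1.62 and 2.69, with Tie1 listed at 0 in both libraries. Neutrophil markers summed to 0.336 and 5.84, with Elane and S100a9 listed at 0 in both, and S100a8 alone gave 5.47 at D7. Skeletal muscle markers summed to 51.2 and 4.77, with Myod1, Myf5 and Ckm listed at 0 in both. Of the muscle sums Acta1 alone gave 45.4 and 1.73.

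Many of these genes had a lower FPKM in the D7 library than in the D0 library, and a smaller set was higher. Of the 63 members above 0 in both libraries, 32 (50.8%) passed 2.0-fold, against 31.7% of all 14986 such genes. Lower at D7 were 19 members, or 30.2%, against 13.2% of all genes, and higher were 13, or 20.6%, against 18.5%. Lower members were thus 59.4% of those called, and 72.5% (29 lower and 11 higher) when each library was divided by its median after a floor of 0.01. Among all genes the lower share of calls was 41.7%, and 57.5% with that floor. The median log2 ratio was -0.22 over the members and 0.02 over all genes. For 24 of the 32 called members the whole interval lay past 2.0-fold, and for Mmp27 it included 1.

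Of the members above 0 in both libraries, 47 reached FPKM of 1 in at least 1 of them, of which 16 were lower and 9 higher. Among all 11967 genes at that level and above 0 in both, 27.6% were called, 11.9% lower and 15.6% higher. The other 22 differed by less than 2.0-fold. Counting error separated 18 of these 22 from a ratio of 1, with 11 below it and 7 above. The remaining 4 were Adamts5, Adamts9, Adamtsl1 and Mmp17.

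**Figure D1:**
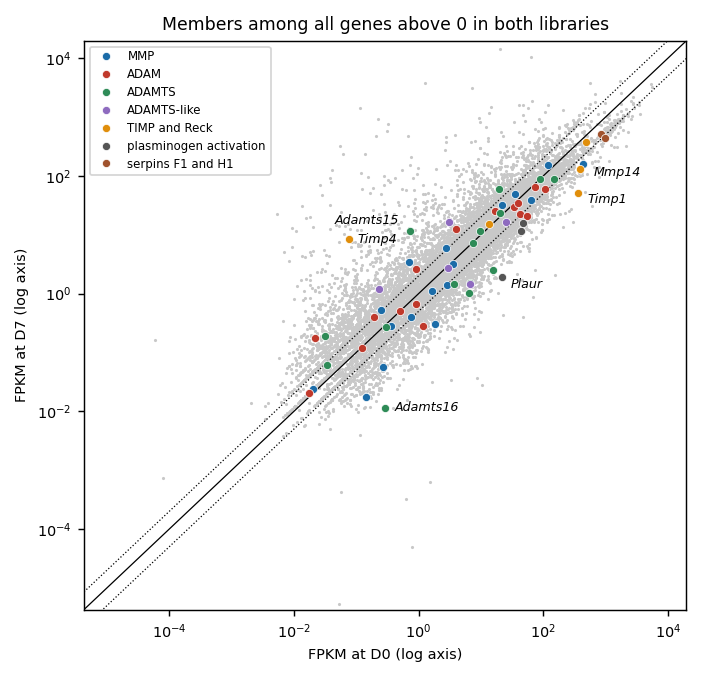
FPKM at D0 against FPKM at D7, both on log axes, for all 14986 genes above 0 in both libraries (grey) and the 63 members among them (coloured by class). The solid line marks equal values and the dotted lines 2.0-fold, and 19 members lie below the lower dotted line and 13 above the upper one.

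Little or no RNA was found for the rest. Listed at 0 in both libraries were 21 members, namely Adam2, Adam6a, Adam6b, Adam7, Adam20, Adam24, Adam25, Adam26a, Adam26b, Adam29, Adam30, Adam34, Adam39, Adamts8, Adamts13, Adamts18, Adamts19, Mmp1a, Mmp7, Mmp20 and Mmp21. A count of 0 allows up to 3 fragments, which for these genes is an FPKM of 0.0256 to 0.157 at D0 and 0.0301 to 0.185 at D7. Another 6 were listed at 0 in 1 library, Adam18 and Mmp24 at D0 and Adam3, Adam21, Adam28 and Mmp1b at D7, and none of them had more than 2 fragments in the other. In all, 29 of the 90 members had at most 3 fragments in both libraries, so that no difference was detectable at this depth.

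**Figure D2:**
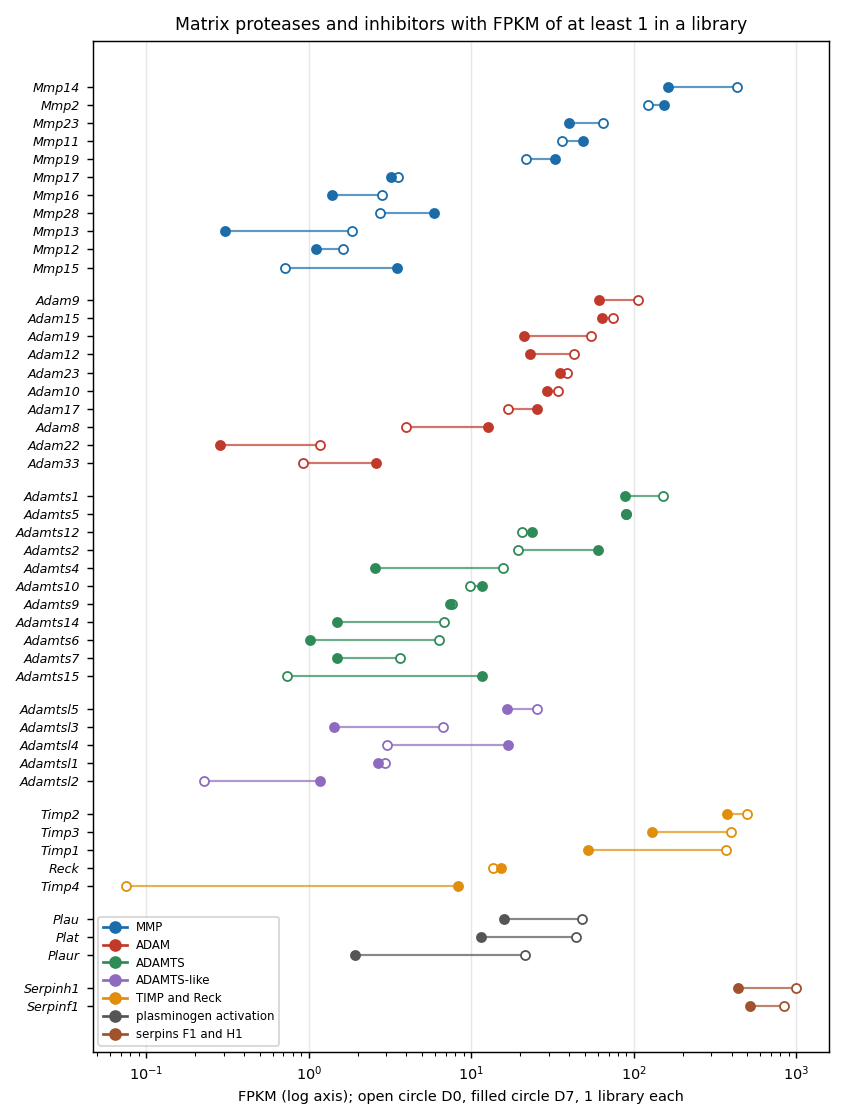
FPKM on a log axis at D0 (open circles) and D7 (filled circles) for the 47 members with FPKM of at least 1 in a library, grouped by class. Serpinh1 and Serpinf1 have the highest values in both libraries, and Timp4, Adamts15 and Plaur are among the members with the widest gaps.

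Among the MMP genes the membrane-anchored collagenase MMP14 led at D0 and shared the lead with the gelatinase MMP2 at D7. Mmp14 (chromosome 14, 54431612 to 54445364 in mm10) had 430 FPKM at D0 against 163 FPKM at D7 (ratio 0.380, 95% interval 0.370 to 0.390). MMP14 cuts fibrillar collagen at the cell surface and, together with TIMP2, activates the proenzyme of MMP2. Mmp2, whose product degrades denatured and basement membrane collagen, had 122 FPKM in preadipocytes and 155 FPKM in adipocytes (ratio 1.27, interval 1.23 to 1.31), which stayed under 2.0-fold. The level of Mmp14 relative to Mmp2 was 3.53 at D0 and 1.06 at D7, a quantity that no scaling between libraries can move. Mmp14 made up 62.3% of the summed FPKM of MMP genes at D0 and 35.8% at D7, and Mmp2 17.6% and 33.9%.

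The other membrane-type genes were lower in level and mixed in direction. Mmp15 rose from 0.716 to 3.47 FPKM (ratio 4.85, interval 3.77 to 6.33). Mmp16 had 2.82 FPKM at D0 against 1.38 FPKM at D7, and its ratio of 0.491 had an interval from 0.395 to 0.609 that includes 0.5. Both encode transmembrane relatives of MMP14. Mmp17, which encodes an enzyme held by a lipid anchor, stood at 3.56 and 3.23 (ratio 0.907, interval 0.790 to 1.04). Mmp25 had 14 fragments at D0 and 1 at D7, and Mmp24 had 1 fragment in all.

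Outside the membrane-type group, Mmp28 was the MMP gene with FPKM of at least 1 that was called higher. Mmp11, stromelysin-3, had 36.0 FPKM in preadipocytes and 48.8 FPKM in adipocytes (ratio 1.36, interval 1.27 to 1.45). It shares 155 bp of exon with Chchd10 on the opposite strand, whose FPKM was 9.69 at D0 and 299 at D7, and the part of those reads in the value of Mmp11 was not tested. Mmp19 had an FPKM of 21.8 and 32.6 (interval of the ratio 1.40 to 1.60) and shares 789 bp of exon with Tmem198b, which stood at 22.7 and 20.9. Mmp28, epilysin, rose from 2.74 to 5.88, and its ratio of 2.15 had an interval from 1.73 to 2.70 that includes 2.0. Mmp23, whose product is held in the membrane by its own amino terminus, stood at 65.0 and 39.8 (ratio 0.613, interval 0.565 to 0.665).

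Enzymes known from inflamed tissue were scarce. The collagenase gene Mmp13 fell from 1.85 to 0.307 FPKM, or 99 fragments to 14 (ratio 0.166, interval 0.0878 to 0.293). Mmp9, the second gelatinase, had 17 fragments at D0 and 3 at D7 (ratio 0.208, interval 0.0390 to 0.718). Mmp12 encodes the elastase of macrophages and had 1.63 FPKM at D0 against 1.10 FPKM at D7 (ratio 0.677, interval 0.496 to 0.917). The summed macrophage markers were 3.83 times as high at D7, and the part of macrophages in the value of Mmp12 was not tested.

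10 of the MMP genes lie side by side on chromosome 9 between 7272514 and 7699585 (mm10), a cluster of secreted enzymes that includes Mmp13, Mmp12, Mmp3 and Mmp10. FPKM stayed under 1 in both libraries for 8 of these 10, whereas 9 of the 13 MMP genes elsewhere reached 1. The stromelysin genes Mmp3 (0.747 at D0 and 0.406 at D7) and Mmp10 (0.364 and 0.286) had intervals that include 1. Mmp27 was called higher at 0.252 and 0.520, on 9 and 16 fragments, with an interval from 0.871 to 5.37. Promoters of the cluster are known for sites of AP-1, the Fos and Jun factor that answers growth factors and stress.

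RefSeq promoter sequences (GRCm38.p6) were matched for 57 of the 90 members, including all 10 of the cluster. The AP-1 letters TGACTCA, on either strand, were found in the 250 bases before the start in 7 of these 10, in 3 of the 47 other members matched (Plaur, Adam19 and Adam29), and in 5.16% of 27025 genes with a promoter. Neither TTGCNNCAA, the letters of a C/EBP site, nor DR1, the direct repeat bound by PPAR, was found in any of the 57. Among the 27025 genes these letters were rare as well, at 1.98% for C/EBP and 0.0407% for DR1. Their absence from 57 promoters therefore sets the members apart in no way. The motifs were picked with the values known, and a match of letters describes the sequence only. The sequences that follow show the last 100 bases before the start of the 7 cluster genes and of Plaur, which had the lowest ratio of the members with FPKM of at least 1, 5′ to 3′ on the gene's strand and with the AP-1 letters in capitals:
Mmp13 (chr9:7272414-7272513, plus strand): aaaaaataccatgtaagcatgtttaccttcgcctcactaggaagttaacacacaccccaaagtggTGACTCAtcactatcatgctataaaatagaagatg
Mmp12 (chr9:7347274-7347373, plus strand): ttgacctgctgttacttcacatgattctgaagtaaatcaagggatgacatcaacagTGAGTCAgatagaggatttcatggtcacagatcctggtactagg
Mmp1b (chr9:7388027-7388126, minus strand): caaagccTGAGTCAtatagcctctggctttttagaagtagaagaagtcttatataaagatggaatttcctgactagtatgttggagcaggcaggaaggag
Mmp3 (chr9:7445722-7445821, plus strand): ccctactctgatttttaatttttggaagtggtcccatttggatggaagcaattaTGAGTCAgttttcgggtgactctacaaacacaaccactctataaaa
Mmp1a (chr9:7464041-7464140, plus strand): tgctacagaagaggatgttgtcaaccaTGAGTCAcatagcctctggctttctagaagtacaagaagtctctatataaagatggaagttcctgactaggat
Mmp10 (chr9:7502242-7502341, plus strand): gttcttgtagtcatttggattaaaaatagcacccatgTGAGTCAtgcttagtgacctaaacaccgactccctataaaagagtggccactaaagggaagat
Mmp7 (chr9:7691990-7692089, plus strand): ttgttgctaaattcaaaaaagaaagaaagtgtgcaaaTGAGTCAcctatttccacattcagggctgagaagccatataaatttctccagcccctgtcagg
Plaur (chr7:24462383-24462482, plus strand): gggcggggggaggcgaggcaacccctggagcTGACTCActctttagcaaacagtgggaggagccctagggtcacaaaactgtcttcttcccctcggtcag

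The letters began 35 bases before the start in Mmp13, 44 in Mmp12, 46 in Mmp3, 63 in Mmp10 and Mmp7, 69 in Plaur, 73 in Mmp1a and 93 in Mmp1b. Of the 19 lower members 11 had a matched promoter, and 3 of these held the letters (Mmp13, Plaur and Adam19). Of the 13 higher members 10 had one, and 0 of these held them, beside 5.16% of the 27025 genes. Called members without a matched promoter include Plat, Plau, Adamts4 and Adamts15. The shares among all lower and all higher genes were not taken, so no difference between the groups can be read from these counts.

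ADAM genes fell into broadly expressed sheddases, relatives of neural tissue and a large set of the reproductive tract. Of the 21 reproductive tract genes, 13 were at 0 in both libraries and Adam5 had the highest level, 0.910 at D0 and 0.665 at D7. The sheddases were led by Adam9, which had 107 FPKM in preadipocytes and 61.3 FPKM in adipocytes (ratio 0.573, interval 0.553 to 0.595), and Adam15, at 74.5 and 64.1 (0.860, interval 0.822 to 0.900).

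Adam12 and Adam19, which encode meltrins, both had lower values at D7, and of these only Adam19 passed 0.5. Adam19, meltrin beta (chromosome 11, 46055992 to 46147343), fell from 54.4 to 21.3 FPKM (ratio 0.391, interval 0.373 to 0.410). Adam12, meltrin alpha, which is known from muscle and fat development, had 43.0 FPKM at D0 against 23.0 FPKM at D7, and its ratio of 0.534 (0.512 to 0.557) stopped short of 0.5.

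The main shedding enzymes of Notch and of TNF differed in direction, both by less than 2.0-fold. Adam10, which cuts Notch receptors, had 34.2 FPKM in preadipocytes and 29.3 FPKM in adipocytes (ratio 0.857, interval 0.812 to 0.904). Adam17, the TNF-releasing enzyme, had 16.9 and 25.5 (ratio 1.51, interval 1.41 to 1.61). Adam10 stood 2.02 times as high as Adam17 at D0 and 1.15 times at D7. Adam17 shares 311 bp of exon with Iah1 on the opposite strand, which had an FPKM of 41.4 and 76.9.

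Called higher were 4 of the 16 ADAM genes above 0 in both libraries, against 18.5% of all such genes. Another 2 of the 16 were called lower, against 13.2%. Of the 10 with FPKM of at least 1, Adam8 and Adam33 were called higher, against 15.6% of all genes at that level. Adam1a and Adam4 were the others called higher. Adam1a had 14 fragments at D0 and 24 at D7 (ratio 2.06, interval 1.00 to 4.22). Adam4 had 1 and 7 (ratio 8.24, interval 1.06 to 371). Adam8, known from leukocytes, rose from 3.96 to 12.8 FPKM (ratio 3.22, interval 2.78 to 3.74), beside the 3.83-fold higher sum of the macrophage markers, whose part in it was not tested. Adam33, known from mesenchymal cells of the airway, rose from 0.920 to 2.61 (ratio 2.83, interval 2.08 to 3.90). The ADAM genes named for neural tissue lack protease activity and act in adhesion. Of these, Adam23 stood at 38.9 and 35.0 (ratio 0.900, interval 0.850 to 0.953), Adam22 fell from 1.18 to 0.285 (ratio 0.242, interval 0.173 to 0.336), and Adam11 stood at 0.501 in both.

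Of the 15 ADAMTS genes above 0 in both libraries, 5 (33.3%) were called lower, against 13.2% of all such genes. Another 3 (20%) were called higher, against 18.5%. The 6 proteoglycanases and the 3 procollagen N-proteinases above 0 in both each had 1 higher and 1 lower, too few genes to set beside those shares. The proteoglycanases cut versican and aggrecan, large sugar-bearing proteins of loose matrix. Adamts1 had 152 FPKM at D0 against 88.5 FPKM at D7 (ratio 0.582, interval 0.566 to 0.599). Adamts5 stood at 89.1 and 90.0, and its ratio of 1.01 (0.990 to 1.03) could not be separated from 1. Adamts9 stood at 7.60 and 7.36, also within counting error.

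Adamts4 and Adamts15 of the same group passed the threshold on either side. Adamts4 (chromosome 1, 171250421 to 171260637) fell from 15.6 to 2.57 FPKM (ratio 0.165, interval 0.142 to 0.192). Adamts15 (chromosome 9, 30899155 to 30922452) rose from 0.737 to 11.7, or 91 to 1223 fragments (ratio 15.8, interval 12.8 to 19.8), the second highest of the members with FPKM of at least 1.

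The procollagen N-proteinases remove the amino-terminal propeptide of fibrillar collagens. Adamts2 (chromosome 11, 50602084 to 50807573) rose from 19.3 to 60.2 FPKM (ratio 3.12, interval 2.99 to 3.26). Adamts14 fell from 728 fragments to 137 (ratio 0.221, interval 0.183 to 0.266), so that its level relative to Adamts2 was 0.351 at D0 and 0.0249 at D7. Adamts3 was low at 0.302 and 0.274. The RNA of this group was thus mainly that of Adamts2 in both libraries, and the summed FPKM of the 3 genes was 26.4 at D0 and 61.9 at D7.

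Among enzymes that cut cartilage oligomeric matrix protein, Adamts7 fell from 3.64 to 1.48 FPKM (ratio 0.408, interval 0.331 to 0.496). Adamts12 had 20.5 and 23.8 (ratio 1.16, interval 1.11 to 1.21). Adamts10, which binds fibrillin microfibrils, stood at 9.80 and 11.7 (ratio 1.19), while its close relative Adamts6 fell from 6.38 to 1.01 (ratio 0.159, interval 0.125 to 0.199). Adamts16 had 30 fragments at D0 and 1 at D7 (ratio 0.0392, interval 0.000961 to 0.236). Adamts17 had 4 and 20 (ratio 5.88, interval 1.97 to 23.7).

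ADAMTS-like genes encode matrix proteins without a protease domain, several of which bind fibrillin. Adamtsl4 rose from 3.03 to 16.9 FPKM (ratio 5.57, interval 4.85 to 6.40). Adamtsl2 rose from 0.228 to 1.18 (ratio 5.18, interval 2.99 to 9.26). In contrast Adamtsl3 fell from 6.72 to 1.43 (ratio 0.213, interval 0.181 to 0.249). Adamtsl1 stood at 2.97 and 2.68. Adamtsl5 stood at 25.6 and 16.7 (ratio 0.653), but its deposited locus spans many other genes, which makes the value uncertain.

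**Figure D3:**
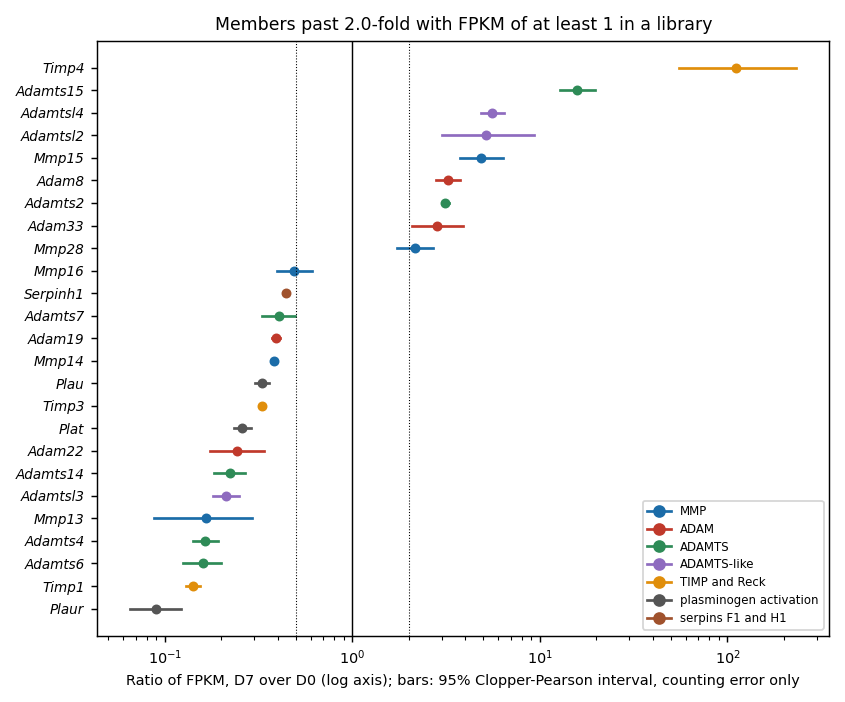
Ratio of FPKM at D7 over D0 on a log axis for the 25 members past 2.0-fold with FPKM of at least 1 in a library, with 95% intervals for counting error. The solid line marks a ratio of 1 and the dotted lines 0.5 and 2.0, and the ratios run from 0.0900 for Plaur to 111 for Timp4.

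Genes of plasminogen activation were lower together. Plaur (chromosome 7, 24462484 to 24475968), the receptor that holds urokinase at the cell surface, fell from 21.5 to 1.94 FPKM, or 614 to 47 fragments. Its ratio of 0.0900 (0.0656 to 0.121) was the lowest of the members with FPKM of at least 1. Plau (chromosome 14, 20836660 to 20843385), urokinase itself, fell from 48.4 to 16.0 (ratio 0.330, interval 0.302 to 0.361). Plat (chromosome 8, 22757727 to 22782844), the tissue-type activator, fell from 44.3 to 11.5 (ratio 0.260, interval 0.235 to 0.287). No other annotated gene overlaps these 3.

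Other genes of this system, which are not members, were taken from the list of extracellular proteolysis described further on. Serpine2, protease nexin 1, an inhibitor of both activators, fell from 213 to 95.5 (ratio 0.449, interval 0.432 to 0.467). The substrate gene Plg was listed at 0 in both libraries. Of the plasminogen-binding proteins, Anxa2 fell from 932 to 365 (ratio 0.391), while its partner S100a10 (359 and 368) and Plgrkt (32.0 and 32.2) differed from a ratio of 1 by less than counting error.

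The TIMP genes, whose products block metalloproteinases, were highly expressed and changed in make-up. Their summed FPKM was 1262 at D0 and 565 at D7. Timp1 (chromosome X, 20870166 to 20874735), the secreted inhibitor known from wounds and inflammation, fell from 369 to 52.2 (ratio 0.141, interval 0.130 to 0.153). Timp3 (chromosome 10, 86300372 to 86349506), which binds the matrix and also blocks ADAM17, fell from 395 to 130 (ratio 0.328, interval 0.321 to 0.336). Timp2, the partner of MMP14, had 497 and 375 (ratio 0.754, interval 0.741 to 0.766), which did not pass 0.5.

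Timp4 (chromosome 6, 115241892 to 115252205, minus strand) went in the opposite direction. Its FPKM was 0.0753 on some 9 fragments in preadipocytes and 8.34 on some 810 in adipocytes. The ratio of 111 (55.5 to 232) was the highest of all members, but the level at D7 was still 1.48% of the TIMP sum. By share of that sum, Timp2 held 39.4% at D0 and 66.3% at D7, Timp3 31.3% and 23.0%, and Timp1 29.2% and 9.23%. Timp2 stood 1.16 times as high as Mmp14 at D0 and 2.30 times at D7.

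Timp1, Timp3 and Timp4 each lie within a synapsin gene on the opposite strand. Syn2, the host of Timp4, had 0.233 FPKM in preadipocytes and 22.2 FPKM in adipocytes, a ratio of 95.3. The exons of Timp4 and Syn2 share 90 bp, or 1.53% of the exon sequence of Timp4, and the part of reads from Syn2 in its value was not tested. Syn3 shares 21.3% of the exon sequence of Timp3, but its FPKM was only 0.0812 at D0 and 0.178 at D7. Syn1, with no exon shared with Timp1, stood at 1.70 and 1.27. The deposited locus of Timp1 also reaches Araf (33.5 at D0 and 46.8 at D7), and that of Timp3 reaches Fbxo7 (7.26 and 8.61). The part of their reads in the values of Timp1 and Timp3 was not tested. Reck, a membrane-anchored inhibitor of MMPs, had 13.6 FPKM at D0 against 15.3 FPKM at D7 (ratio 1.12, interval 1.03 to 1.22).

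**Figure D4:**
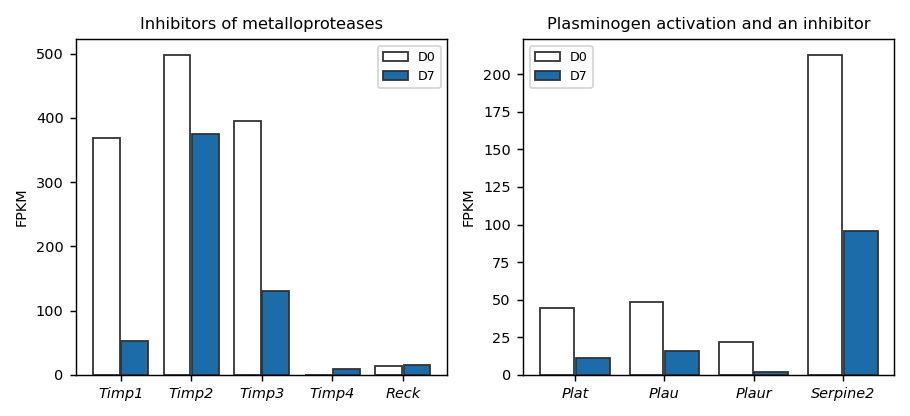
FPKM in each library (bars from 0, white for D0 and blue for D7, 1 library each) of the TIMP genes and Reck (left) and of plasminogen activation with Serpine2 (right). Timp1 falls from 369 to 52.2 and Serpine2 from 213 to 95.5, while Timp2 keeps the tallest D7 bar of the left panel at 375.

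Of the serpins, Serpinh1 encodes HSP47, a chaperone of procollagen in the endoplasmic reticulum that inhibits no protease. It had the highest level of all members at D0 and fell from 996 to 441 FPKM (ratio 0.443, interval 0.435 to 0.451). The collagen genes Col1a1 (1900 and 601) and Col1a2 (1266 and 594) were lower as well. Serpinf1 encodes PEDF, a secreted anti-angiogenic factor, and had 836 FPKM in preadipocytes and 520 FPKM in adipocytes (ratio 0.622, interval 0.610 to 0.634).

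Other genes of extracellular proteolysis were taken from a list of 45, of which 43 were above 0 in both libraries. Higher at D7 were 11 and lower were 9, with a median log2 ratio of -0.01. These are 25.6% and 20.9% of the 43, against 18.5% and 13.2% of all genes, and the share called in either direction, 46.5%, was near the 50.8% of the members. The cathepsin inhibitor Cst3 rose from 466 to 1458 FPKM (ratio 3.13), Ctsb from 183 to 495 (2.70) and Ctss from 6.49 to 23.1 (3.56). These 3 are also abundant in macrophages, whose markers were higher, and the part of macrophages in these differences was not tested. Ctsk, a collagen-degrading cathepsin, fell from 116 to 52.1 (0.449), whereas Ctsd (981 and 1779) and Bsg (514 and 759), an inducer of MMP genes, stayed under 2.0-fold.

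The serpin gene Serpina3n showed the widest difference of this list, with 2.88 FPKM at D0 against 153 FPKM at D7 (ratio 53.2, interval 44.2 to 64.3). Also higher were Htra3, a serine protease, from 8.43 to 41.5 (ratio 4.93), and Pcsk6, a proprotein convertase, from 9.09 to 32.1 (3.54). Tll1, a procollagen C-proteinase, fell from 13.7 to 1.57 (0.114), and its relative Bmp1 stood at 136 and 70.4 (0.519). Pappa, which cuts binding proteins of insulin-like growth factors, fell from 52.0 to 24.1 (0.464).

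Division by the library median after that floor moved the log2 ratio of every gene above the floor by -0.35. With that shared shift included, Mmp2, Reck, Adamts5, Adamts10 and Adamts12 had ratios below 1, from 0.792 to 0.996, in place of ratios above it. Adamts5 was also below 1 as TPM, centred on the median and by the upper quartile. With the floor and the library median, Adam9, Adam12, Adamts1, Mmp23 and Serpinf1 passed 0.5, and Mmp28 lost its call.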

How the data were processed

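RNA-Seq of 1 library per stage (2 in all) was analysed from the FPKM values the authors deposited, 1 per gene and library. Per the methods, the authors removed adaptor, low-quality, duplicate and rRNA reads and aligned the rest to mm10 with SOAP2, while the labels name Bowtie2. The preparation kept strand, since the second cDNA strand was degraded enzymatically, but the annotation and whether counting used strand are not given in the sources used here. Of 27324 rows, 3963 held no value. Ratios were taken without a pseudocount or rescaling.

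Fragments were recovered from 605 single-exon genes, in which 100% of low values (at most 20 fragments) came out whole, within 0.1. The denominator came to 21471020 fragments for D0 and to 18265378 for D7, with 179 and 182 bp taken from each length. For the other genes length was that of the transcript the row names, or of the longest where none matched, so fragments are approximate: 9 of 17 low member values at D0 and 12 of 16 at D7 were whole. Coordinates are from GENCODE M21.

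Members, lists and alternatives were chosen with earlier results of these data known, and subgroups and motifs with the values known. Fully described are members called with FPKM of at least 1, at FPKM of at least 10, or in the TIMP, Reck, plasminogen and serpin classes. From the list of 45, the 5 highest and those called at FPKM of at least 10 are named, apart from results that are not reported here, and others were picked after their values were seen. Adgre1 was matched as Emr1, and Ly6g was not matched. A comparison of zinc-binding motifs in the proteins was not made, because no protein sequences were used here. Scripts were tested on simulated data. Work was done in Python 3.11.15 with scipy 1.17.1 for intervals, pandas 2.3.3 and numpy 2.4.6 for tables and matplotlib 3.10.9 for figures.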

Additional observations from a re-analysis of the deposited data

How the results depend on the processing

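No paired analysis was possible because each stage has 1 library, and for the same reason no library could be left out. Of the 13 higher and 19 lower members, a pseudocount of 1 left 6 higher and 13 lower (1533 and 1021 among all 16671 genes). A threshold of 4.0-fold left 7 higher and 11 lower (1211 and 578 among all 14986 genes). The share called was 27.5% of members against 15.3% of all genes with that pseudocount, and 28.6% against 11.9% at that threshold. The floor of 0.01 with the library median gave 29 lower members, or 72.5% of its calls against 59.4% (57.5% against 41.7% among all genes), since it lowers each log2 ratio by 0.35 and also counts genes listed at 0. The median log2 ratio of the members, -0.22, was -0.085 with a pseudocount of 1, -0.41 at FPKM of at least 1 in a library and -0.35 with that floor, at which genes listed at 0 in both libraries take the same value. For the other proteolysis genes, the floor gave 14 lower and a median of -0.35, and the threshold of 4.0-fold gave 4 higher and 3 lower. TPM, median centring, the upper quartile, summed rows, a minimum of 10 fragments and a filter at 0.1 kept the counts within 1.5 times. None of the 43 fully described members reversed a call. With a pseudocount of 1, Adam22, Adam33, Adamts7, Adamtsl2, Mmp16 and Mmp28 lost theirs, Mmp16 also with 0.1, and the ratio of Timp4 came to 8.69. Values of genes with few fragments are limited by depth, and overlapping genes by the unknown use of strand.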
